A study of Homo sapiens with 72 samples.

Results

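The genes described here are 56 long non-coding RNA (lncRNA) genes of the human breast line MCF10A-M2 whose levels at 24 h stood above their 0 h levels, relative to the typical lncRNA gene of the same libraries, under both TGF-β and the TGF-β receptor inhibitor SB431542. In the parent line MCF10A-M1 and in MDA-MB-231 the change of the same genes from 0 h to 24 h was close to that of the typical gene. The times between were not part of this condition. They were taken from 13631 genes that passed a low-value filter in all 3 lines, out of 96411 genes in the table. The study measured lncRNA genes in 72 libraries of total RNA, from 3 lines, 2 agents and 4 times with 3 replicates per group. M1 is the MCF10A line, labelled as normal breast epithelium, and M2 is MCF10A transformed with HA-Ras, labelled as pre-malignant. MDA-MB-231 is labelled as a triple negative breast cancer line. In the TGF-β arm cells were unstimulated at 0 h or had TGF-β at 5 ng/mL for 2, 8 or 24 h. In the inhibitor arm, called the SB arm below, they had SB431542 at 10 µM for 2, 8 or 24 h, and the earliest group is 0 h in the titles and 0.5 h in the treatment field. All groups of every line had first been kept overnight in medium without serum. No group at 2, 8 or 24 h without either agent was analysed here, so in each arm the time since the start and the agent cannot be told apart.

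TGF-β binds a pair of receptor kinases at the cell surface, and the type I receptor then phosphorylates SMAD proteins that enter the nucleus and regulate transcription. SB431542 inhibits the kinase activity of ALK5, that type I receptor, and of its close relatives, so the agents act on 1 pathway in opposite directions. Activated RAS, the alteration that separates M2 from M1, is known to modify how breast epithelial cells respond to TGF-β. LncRNAs are transcripts that are not translated into protein. Some act in chromatin regulation or splicing, but most have no assigned role. The deposited identifiers of the members match no gene name in the tables used here, so no member has a stated role, and members are called below by their rank, with 1 for the gene that met the selection rule by the widest margin.

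The members were chosen from the 0 h and 24 h libraries, and the changes between these groups are therefore a description without a test. Values are in TPM, a level corrected for gene length and scaled to 1 total per library, and changes are differences of log2(TPM + 0.5), which understate the change of genes with low values. For each line and arm the difference of the group means at 24 h and 0 h was taken, and its median over all genes tested in that line was subtracted to give a centred change. Members had centred changes of at least 0.8 in both arms of M2 that differed by less than 0.6, and stayed within 0.4 of 0 in both arms of M1 and MDA-MB-231. In M2, 1685 of the 13631 genes reached 0.8 under TGF-β and 1156 under SB, 566 did so in both arms, and 378 of these also differed by less than 0.6. Of these 378, the condition on the other lines left 56, and the rule's limit of 100 genes was not reached. The member ranked 55 had centred changes of 1.29 under TGF-β and 0.82 under SB, and the member ranked 56 had 0.84 and 0.81. Just outside, the nearest genes had 0.80 and 1.05 (the former a little under the threshold), and 1.23 and 0.79.

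The libraries of M2 changed as a whole over the same time. Over all 72 libraries, 8458 to 16748 lncRNA genes were at 0.5 TPM or more, and the 10 highest genes held 56.7% to 78.8% of the total. In M2 the mean share of the 10 highest genes was 67.3% at 0 h and 75.6% at 24 h of TGF-β, and 60.1% and 71.3% in the SB arm. The largest gene held 26.9% and 37.9%, and 25.3% and 34.8%. Because TPM is scaled to 1 total, larger shares of these genes lower the TPM of the others. How much of the fall of the median gene this makes up was not tested. In M2 the number of genes at 0.5 TPM or more was 13571 ± 910 at 0 h and 9080 ± 921 at 24 h of TGF-β, and 13123 ± 1024 and 9310 ± 42.9 in the SB arm (SD, n = 3). The median TPM over the 13631 genes was 2.29 and 0.82 at these times under TGF-β, and 2.11 and 0.92 under SB. Among the M2 libraries at 2 h and 8 h, replicate 1 of SB at 2 h stood apart from its group with 13996 genes at 0.5 TPM or more, against 10705 and 10335. Replicate 1 of TGF-β at 8 h lay on the other side of its group, with 11751 genes against 13638 and 13822. At 0 h, replicate 2 of the TGF-β arm had a summed TPM of the members of 133628, against 157557 and 168189 in its group. Replicate 1 of the SB arm at 0 h had 127002, against 172704 and 156079. The most abundant member makes up most of each sum. With each of these 0 h libraries left out in turn, the rule kept 50 and 48 of the 56 members. Read depth is unknown, since TPM keeps none, and the part of these shifts in the results below was not tested. In such bulk samples, fewer cells of a type and less RNA per cell cannot be told apart.

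**Figure D1:**
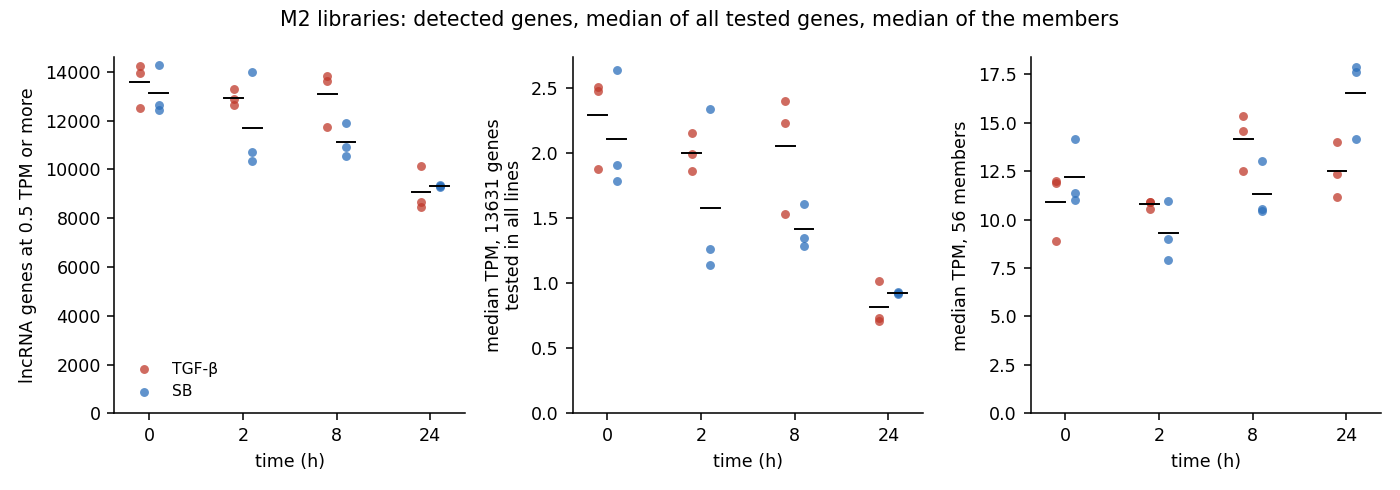
The 24 M2 libraries by time in h (evenly spaced) and arm, with each point a library and each bar a group mean. From left to right the vertical axes give the count of genes reaching 0.5 TPM, the median TPM of the 13631 genes tested in all lines, and the median TPM of the 56 members. At 24 h of both arms the first 2 measures lie below every earlier library. The members' median has group means of 10.9 at 0 h, 14.1 at 8 h and 12.5 at 24 h of TGF-β. Under SB it has 12.2 at 0 h, 9.30 at 2 h and 16.5 at 24 h. The selection used the 0 h and 24 h libraries.

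Against this falling background the members held or raised their TPM. As deposited, all 56 were higher at 24 h than at 0 h on the log2 scale in both arms of M2, which the rule fixes, since its threshold of 0.8 exceeds the fall of the median gene in both arms. Their median change was 0.28 (0.08 to 1.63) under TGF-β and 0.47 (0.18 to 1.69) under SB. The median of all 16958 genes tested in M2 was -0.74 and -0.63. Only 10 members under TGF-β and 9 under SB changed by 0.8 or more before centring, so most of the centred change came from the fall of the typical gene. Centred, the members' median was 1.02 (0.82 to 2.37) under TGF-β and 1.11 (0.81 to 2.32) under SB. In linear terms the median ratio of group mean TPM was 1.30 under TGF-β, where 8 members reached 2-fold and 2 lay below 1. Under SB the median ratio was 1.43 and 9 members reached 2-fold, leaving out 2 members that were listed at 0 in all 0 h libraries of that arm. The centred change was the larger one under TGF-β in 29 of the 56 and the gap between arms ran from -0.57 to 0.55.

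In the other lines the background moved less. The median change of all tested genes was -0.25 under TGF-β and near 0 (0.01) under SB in M1, and -0.25 and -0.05 in MDA-MB-231. As deposited, the members' medians were -0.14 and 0.04 in M1, and -0.18 and 0.02 in MDA-MB-231. Under TGF-β 12 members lay above 0 in each of these lines, and under SB 30 in each.

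**Figure D2:**
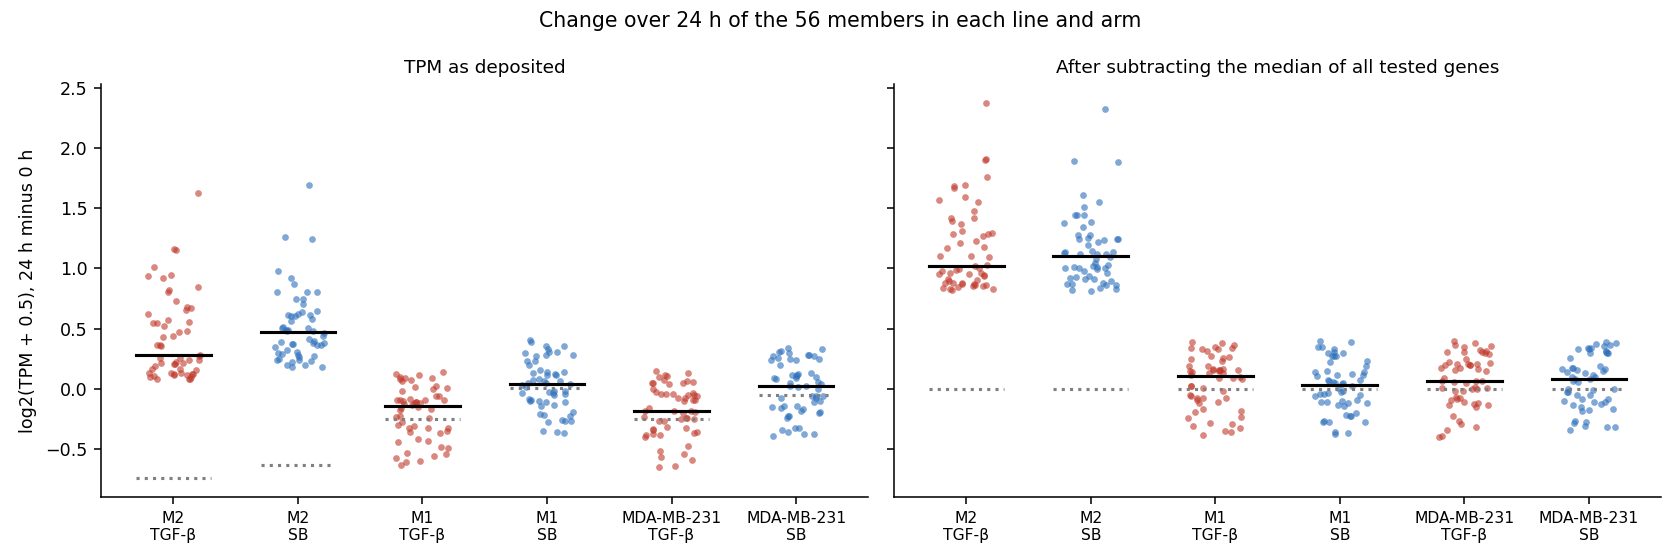
Change from 0 h to 24 h of the 56 members on the log2(TPM + 0.5) scale, as deposited at the left and after subtracting the median of all genes tested in the line at the right. Each point is a member, solid bars are the members' medians and dotted bars the medians of all tested genes. In M2 the as-deposited medians of 0.28 and 0.47 stand over all-gene medians of -0.74 and -0.63, and the selection fixed the separation seen at the right.

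The leading member, NONHSAG002863.2 (rank 1), was abundant. Under TGF-β its M2 libraries gave 113, 71.0 and 108 TPM at 0 h, then 140, 158 and 138 at 2 h, 215, 220 and 273 at 8 h, and 191, 221 and 230 at 24 h. Under SB they gave 85.4, 117 and 128 TPM at 0 h, 89.8, 66.0 and 61.8 at 2 h, 152, 141 and 170 at 8 h, and 266, 268 and 248 at 24 h. All 24 h libraries lay above all 0 h libraries in both arms, but the TGF-β arm had reached its highest level by 8 h while the SB arm was still higher at 24 h than at 8 h. In M1 the 24 libraries ranged from 103 to 162 TPM with a median of 120, and in MDA-MB-231 from 85.8 to 182 with a median of 125. At 0 h the M2 libraries lay between 71.0 and 128, so M2 overlapped with both lines at the start.

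The member ranked 2 followed another course, with its highest values at 24 h in both arms. Under TGF-β it had 16.5, 9.11 and 16.5 TPM at 0 h, 15.3, 14.4 and 18.2 at 8 h, and 43.0, 41.0 and 44.9 at 24 h. Under SB it had 16.8, 16.7 and 16.3 TPM at 0 h, 21.2, 21.2 and 23.8 at 8 h, and 39.9, 43.2 and 37.3 at 24 h. The 24 h libraries were clear of every earlier M2 library in both arms, and under SB the 8 h libraries already lay above those of 0 h. Even so, M2 remained below the parent line, where this gene ranged from 48.8 to 148 TPM with a median of 82.2. MDA-MB-231 had a median of 16.3 TPM (11.1 to 29.5).

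In the member ranked 3 the TGF-β libraries had 19.3, 10.9 and 20.0 TPM at 0 h, 36.9, 48.5 and 44.4 at 8 h, and 34.6, 30.0 and 35.2 at 24 h. The SB libraries had 16.0, 14.6 and 19.8 TPM at 0 h, 24.7, 27.4 and 35.9 at 8 h, and 57.6, 58.0 and 49.5 at 24 h. The arms were alike at the start, and all 24 h libraries of the SB arm lay above those of the TGF-β arm. Its centred changes of 1.76 and 2.32 had nearly the widest gap the rule admits. The member ranked 10 had more similar arms, with 25.5, 22.8 and 32.8 TPM at 0 h and 52.4, 50.5 and 51.8 at 24 h of TGF-β, and 27.9, 31.1 and 36.2 at 0 h and 50.7, 49.5 and 48.7 at 24 h of SB. Its M1 and MDA-MB-231 medians were 50.2 and 54.2 TPM, so at 24 h M2 was at the level the other lines had throughout.

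The members ranked 4 to 9 were low, with medians over the 24 M2 libraries between 0.25 and 3.35 TPM. In 3 of these 6 members, those ranked 4, 6 and 8, the 0 h and 24 h libraries overlapped in 1 arm or both. The member ranked 4 had 1.44, 0.37 and 2.34 TPM at 0 h and 2.41, 2.58 and 2.60 at 24 h of TGF-β, and in the SB arm 1.07, 1.92 and 0.72 at 0 h and 2.79, 4.09 and 1.83 at 24 h. The 24 h groups there cleared the 0 h groups under TGF-β only. The member ranked 5 did not overlap in either arm, with 0.68, 0.42 and 0.96 TPM at 0 h and 1.49, 1.86 and 1.79 at 24 h of TGF-β, and 0.65, 0.71 and 0.63 at 0 h and 1.86, 1.73 and 1.53 at 24 h of SB. For the member ranked 6 the TGF-β libraries had 1.50, 1.63 and 4.28 TPM at 0 h and 4.84, 3.63 and 4.62 at 24 h, so the groups overlapped through 1 library.

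The member ranked 7 had the highest ratio of mean TPM, 6.87 under TGF-β and 6.82 under SB, and nearly the lowest level. It was listed at 0 in 2 of 3 libraries at 0 h of each arm, and its 24 h values were 0.54, 0.36 and 0.26 TPM under TGF-β and 0.63, 0.38 and 0.47 under SB. The member ranked 8 was listed at 0 in 5 of the 24 M2 libraries, among them 1 at 0 h of each arm, and its 0 h and 24 h libraries overlapped in both arms. The member ranked 9 had 0.59, 0.35 and 0.91 TPM at 0 h and 1.72, 2.10 and 1.96 at 24 h of TGF-β, which did not overlap, and its medians of 3.24 TPM in M1 and 6.92 in MDA-MB-231 were above the 0.89 of M2.

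**Figure D3:**
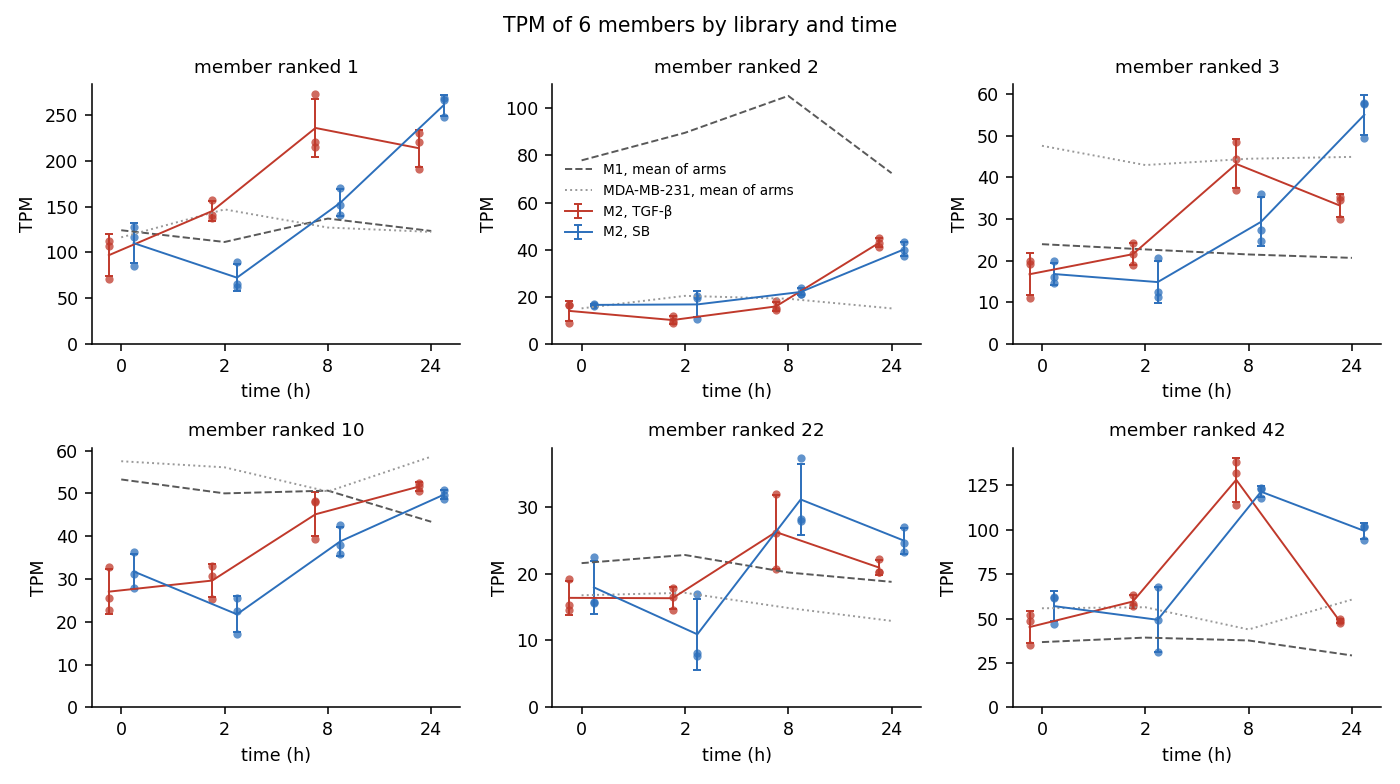
TPM by time in h (evenly spaced) for 6 members. Points are M2 libraries, lines with bars are M2 group means ± SD (n = 3) under TGF-β and SB, and the dashed and dotted lines are the means of both arms in M1 and MDA-MB-231. The members ranked 2 and 10 are highest at 24 h in both arms, whereas the members ranked 22 and 42 are highest at 8 h.

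The members spanned the whole range of levels and were on average more abundant than other lncRNA genes. Their mean TPM over the 24 M2 libraries had quartiles of 1.64, 11.8 and 102, against 0.64, 1.66 and 8.26 for all genes tested in the 3 lines. By mean M2 TPM, 11 members lay below 1 TPM, 14 between 1 and 10, 16 between 10 and 100, and 15 at 100 or more. Of the tested genes at 100 TPM or more, 2.75% were members, and of those below 1 TPM 0.215%. Part of that difference came from the M2 thresholds alone, which 7.34% and 2.40% of these genes met.

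The most abundant member, ranked 33, took 135367 TPM on average over the M2 libraries. Its TGF-β libraries had 127311, 107329 and 139492 TPM at 0 h and 151955, 145654 and 145854 at 24 h, and its SB libraries 101694, 141674 and 124303 at 0 h and 147188, 150352 and 143888 at 24 h. Both arms were above their start without overlap, by ratios of 1.19 and 1.20 of the group means. The member ranked 34 had ratios of 1.17 and 1.21 at a mean of 14966 TPM, and the member ranked 56 of 1.05 and 1.13. For these abundant genes the as-deposited change was small and the centred change of 0.81 to 1.00 was carried by the fall of the median gene.

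At the other end, the member ranked 52 had 0, 0.47 and 0 TPM at 0 h and 0.14, 0.17 and 0.18 at 24 h of TGF-β, and was listed at 0 in every 0 h library of the SB arm. The member ranked 44 was likewise listed at 0 there. Its SB libraries had 0.51, 0.68 and 0.72 TPM at 2 h, and 0, 0 and 0.31 at 24 h, a mean of 0.10. All 56 members would pass the M2 filter without the 24 h libraries, and 41 were at 0.5 TPM or more in all 24 M2 libraries, 46 in all of M1 and 44 in all of MDA-MB-231.

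Separation of the libraries varied more than the threshold implies. All 3 libraries at 24 h lay above all 3 at 0 h in 21 members under TGF-β, where 5.27% of all genes tested in M2 did so, and in 31 under SB, where 3.09% did. The rule used this contrast, so nothing is read from these counts. Both arms separated in 17 members, among them those ranked 1, 2, 3, 5, 7, 9 and 10, and neither arm in 21. By mean M2 level, 1 of the 11 members below 1 TPM separated in both arms, 3 of 14 between 1 and 10, 7 of 16 between 10 and 100 and 6 of 15 above. The shares of all genes that separate in both arms, or by level, are not given here, so nothing is read from these counts either. The median SD of log2(TPM + 0.5) within M2 groups was 0.40, 0.38, 0.28 and 0.21 in the same order.

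The libraries at 2 h and 8 h took no part in the choice, apart from the low-value filter, and show the path between the ends. Centred in the same way against 0 h, the members' median was 0.18 at 2 h and 0.48 at 8 h under TGF-β, and 0.21 and 0.59 under SB. At 2 h, 1 member under TGF-β and 3 under SB had reached 0.8, and at 8 h 11 and 13. Above 0 at 8 h lay 52 and 54 of the 56. The shares of all genes that reached 0.8 or lay above 0 are not given here, so nothing is read from these counts. All these centred values share their 0 h libraries with the selection, and only the step from 2 h to 8 h is free of it.

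From 2 h to 8 h of TGF-β, 2 of the 56 members rose and none fell in M2, where 0.578% of all tested genes rose and 0.69% fell (limma, adjusted p under 0.05). At an unadjusted p under 0.05, 17 members were higher and 0 lower, where 5.47% of all genes were higher and 7.19% lower. The members' median change was 0.32 against -0.02 for all genes, and 44 of 56 (78.6%) were higher at 8 h, against 47.7% of all genes. The risen members were those ranked 42 and 3. Leaving out any of the TGF-β 2 h libraries, or replicate 2 or 3 at 8 h, left 1, with limma adjusted p of 0.0629 to 0.153 for the member ranked 3, and with the 10 highest genes left out of the scaling total neither was called, where 0.248% of all genes were higher and 0.0531% lower. Median-of-ratios scaling called 12 members higher, where 1.97% of all genes were higher and 1.96% lower, and library-median centring 10, where 1.46% and 3.03% were; none was lower in either.

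From 2 h to 8 h of SB, 3 members rose and none fell, those ranked 22, 42 and 1, where 0.165% of all tested genes rose and 0.0059% fell. At an unadjusted p under 0.05, 11 members were higher and 0 lower, where 5.55% of all genes were higher and 3.49% lower. The median was 0.26 against -0.01, and 48 members (85.7%) were higher at 8 h against 48.7% of all genes. Replicate 3 of SB at 2 h had a summed TPM of the members of 133190, against 174055 and 186157 in its group. Without the most abundant member these sums were 29032, against 36738 and 34856. How much of the members' median change rests on this low library was not tested. Without the library that stood apart, replicate 1 at 2 h, 8 members rose, and without replicate 2 or 3 of that group, or replicate 3 at 8 h, 2 did. The shares of all genes that rose in these repeats are not given here, so nothing is read from the change in count. Median-of-ratios scaling called 9 members higher and none lower, where 1.87% and 0.448% of all genes were called, and library-median centring 9 and none, where 4.26% and 0.259% were. In both arms together 38 members (67.9%) were higher at 8 h than at 2 h, against 23.4% of all genes, and 2 were lower in both. The arms share no library at these times.

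**Figure D4:**
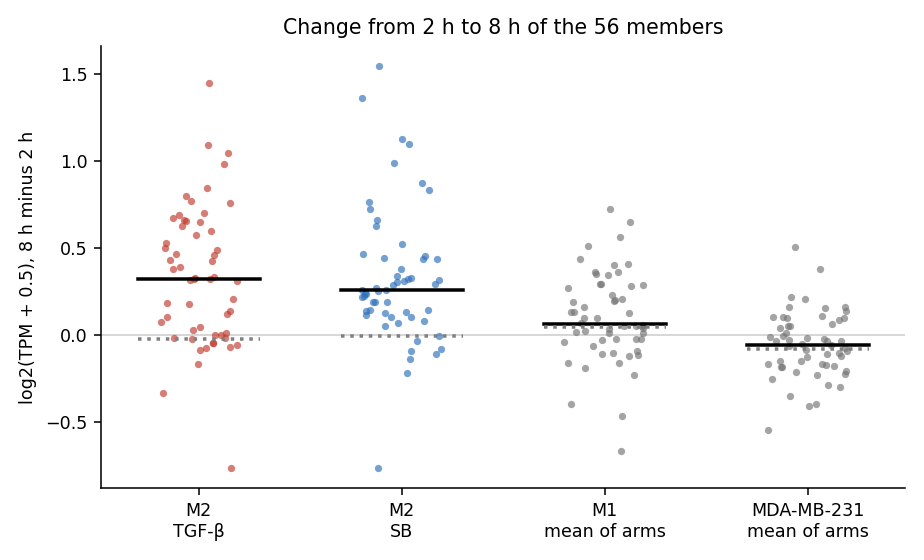
Change from 2 h to 8 h of the 56 members on the log2(TPM + 0.5) scale, in libraries that the selection rule did not use for its contrast. Each point is a member, solid bars are the members' medians and dotted bars the medians of all tested genes. In M2 the members' medians of 0.32 and 0.26 stand above all-gene medians of -0.02 and -0.01, while in M1 and MDA-MB-231 the bars lie close together.

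NONHSAG048570.2, the member ranked 42, was the only one called in both arms. Under TGF-β it had 58.0, 57.2 and 63.5 TPM at 2 h and 114, 132 and 138 at 8 h, and under SB 67.7, 49.1 and 31.1 at 2 h and 123, 123 and 118 at 8 h. Its groups did not overlap in either arm. It rose by 1.10 (SE 0.21, limma adjusted p = 0.00543) under TGF-β and by 1.36 (SE 0.21, limma adjusted p = 0.00164) under SB. By 24 h the arms had parted, as the TGF-β libraries were back at 47.3, 48.7 and 50.0 TPM, close to the 48.6, 35.0 and 51.9 of 0 h, whereas the SB libraries stood at 102, 101 and 94.4. It met the rule under TGF-β because an as-deposited change of 0.13 is 0.87 once the median is subtracted. In M1 it ranged from 26.7 to 46.6 TPM (median 35.3) and in MDA-MB-231 from 34.5 to 78.1 (median 53.2).

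The member ranked 22 had 17.0, 8.16 and 7.60 TPM at 2 h and 27.8, 28.2 and 37.2 at 8 h of SB, with the highest 2 h value in the library that stood apart. It rose by 1.55 (SE 0.24, limma adjusted p = 0.00239). Under TGF-β it had 17.8, 16.5 and 14.6 TPM at 2 h and 20.7, 26.1 and 31.8 at 8 h, also without overlap but not called. At 24 h it was at 20.2, 20.2 and 22.2 TPM under TGF-β and 24.5, 27.0 and 23.2 under SB, within or below the 8 h values. The member ranked 3 rose under TGF-β by 0.98 (SE 0.23, limma adjusted p = 0.0332), from 19.0, 21.5 and 24.2 TPM. NONHSAG002863.2 rose under SB by 1.10 (SE 0.19, limma adjusted p = 0.00709), and its difference of 0.69 under TGF-β had a limma adjusted p of 0.0711.

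By level, the step from 2 h to 8 h was widest in the members between 10 and 100 TPM, with medians of 0.59 under TGF-β and 0.39 under SB. The 15 members at 100 TPM or more had medians of 0.00 and 0.24. The 11 members below 1 TPM had 0.33 and 0.23, and those between 1 and 10 TPM 0.45 and 0.23. These medians were not compared by a test.

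The arms were compared directly at 2 h and 8 h, which asks whether the members respond to the state of the receptor. At 2 h, 1 member was higher under TGF-β and none was lower, where 4.03% of all genes were higher and 0.106% lower. This was NONHSAG002863.2, with a difference of 1.01 (SE 0.19, limma adjusted p = 0.00265), and its TGF-β libraries of 138 to 158 TPM were clear of the SB libraries of 61.8 to 89.8. The members' median difference of 0.15 was below the 0.27 of all genes. Without replicate 1 of SB at 2 h, 9 members were higher, and without replicate 3 of that group 1 was higher and 1 lower. The shares of all genes called in these repeats are not given here, so the counts are not read as a result about the members. Median-of-ratios scaling, where 1.85% and 0.519% of all genes were called, gave 1 member higher and 1 lower. So did library-median centring, where 2.56% and 0.554% were called. With the 10 highest genes left out of the scaling total none was called, where 0.708% and 0.0413% of all genes were. Median-of-ratios scaling moved the median of all genes from 0.27 to 0.00 and that of the members from 0.15 to -0.20.

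At 8 h, 3 members were higher under TGF-β and none lower, where 6.04% of all genes were higher and 0.885% lower. The member ranked 23 had 11.8, 21.9 and 22.2 TPM under TGF-β and 4.96, 5.88 and 8.55 under SB, a difference of 1.44 (SE 0.28, limma adjusted p = 0.00204). The member ranked 46 had 10.8, 13.6 and 15.8 TPM against 5.40, 8.35 and 6.48, a difference of 0.95 (SE 0.22, limma adjusted p = 0.0108). In the member ranked 21 the difference was 0.85 (limma adjusted p = 0.0239), from 56.5, 81.0 and 83.3 TPM against 42.5, 35.2 and 42.5. In none of these 3 members did the groups overlap. The members' median difference was 0.07, below the 0.23 of all genes.

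This comparison depended on the scaling. Library-median centring moved the median of all genes from 0.23 to -0.18 and gave 2 members higher and 15 lower, where 4.02% and 10.2% of all genes were called. Median-of-ratios scaling gave 3 higher and 3 lower, where 6.33% and 4.88% were called. Without replicate 1 of SB at 8 h or replicate 3 of TGF-β at 8 h only 1 member was called, and the member ranked 46 then had limma adjusted p of 0.0848 and 0.0791. For the members that are not named, the direction between the arms at 8 h therefore depended on the scaling.

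In the parent line the step from 2 h to 8 h, as the mean of both arms, was called higher in 5 members and lower in 1, where 3.57% of all genes tested in M1 were higher and 2.3% lower. The members' median of 0.06 was close to the 0.05 of all genes. The higher members were those ranked 48, 28, 17, 2 and 15, and the member ranked 32 was lower, with differences from -0.16 to 0.56 on the log2 scale. All 6 had separate groups under TGF-β and overlapping ones under SB. For the member ranked 15 the SB overlap was narrow, with 642.6 TPM in the highest 2 h library and 641.9 in the lowest 8 h library. The shares of all M1 genes that separate in each arm are not given here, and whether the step differed between the arms was not tested. Scaling changed this split. Median-of-ratios scaling gave 4 higher and none lower, where 3.23% and 3.75% of all genes were called, and library-median centring gave the same counts, where 3.05% and 3.73% were called. Leaving out 1 library at a time gave 3 to 7 called members, with the lowest count without replicate 2 of SB at 2 h, replicate 2 of SB at 8 h or replicate 3 of TGF-β at 8 h.

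In MDA-MB-231, 0 members were called in either direction by limma, where 0.0362% of all tested genes were higher and 0.187% lower. At an unadjusted p under 0.05, 1 member was higher and 2 were lower, where 2.18% and 9.1% of all genes were. The members' median was -0.05 against -0.08 for all genes.

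The difference between the lines was tested itself, as the step from 2 h to 8 h in M2 less the same step in the other line, with the mean of both arms. Against M1, 5 members had a larger step in M2 and none a smaller one, where 0.764% and 0.627% of all genes were called. These were the members ranked 42, 22, 3, 10 and 1, and the median difference was 0.15 against -0.06 for all genes. Against MDA-MB-231, 8 members had a larger step in M2 and none a smaller one, where 0.609% and 0.0643% of all genes were called. These were the members ranked 42, 20, 22, 1, 3, 10, 11 and 17, and the median difference was 0.29 against 0.05. Against M1, median-of-ratios scaling called 8 members, where 2.22% of all genes had a larger and 1.19% a smaller step in M2, and library-median centring 8, where 2.85% and 0.897% did. The comparisons use the same M2 libraries and are not independent of each other.

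For NONHSAG048570.2 the step was larger in M2 than in M1 by 1.29 (SE 0.17, limma adjusted p = 9.96e-06) and larger than in MDA-MB-231 by 1.58 (SE 0.20, limma adjusted p = 3.16e-06). In M1 this gene had 45.8, 40.3 and 39.3 TPM at 2 h and 46.6, 36.1 and 41.6 at 8 h of TGF-β, so the groups there overlapped. For the member ranked 22 the differences were 1.26 (SE 0.21, limma adjusted p = 0.00029) and 1.27 (SE 0.26, limma adjusted p = 0.00776). The other 3 members called against M1 differed by 1.08 (rank 3), 0.70 (rank 10) and 0.60 (rank 1). Without replicate 1 of SB at 2 h in M2, 6 members were called against M1 and 9 against MDA-MB-231. The scaling that leaves out the 10 highest genes reduced the count against MDA-MB-231 to 3, where 0.287% of all genes had a larger and 0.0297% a smaller step in M2.

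The level of the members between lines was not part of the rule either, and was compared over the 2 h and 8 h groups. Against M1, 18 members were higher in M2 and 23 lower, where 5.68% of all genes were higher and 61.9% lower, and the median was -0.15 against -0.52. The members ranked 47 and 35 were higher by 1.39 (SE 0.08, limma adjusted p = 1.17e-17) and 1.35 (SE 0.14, limma adjusted p = 3.02e-10). The member ranked 47 ranged from 52.5 to 127 TPM over the 24 M2 libraries, with a median of 89.5, and from 26.0 to 49.3 in M1, with a median of 36.9. The lines did not overlap there.

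For the member ranked 2 the difference of M2 from M1 was -2.52 (SE 0.09, limma adjusted p = 1.00e-24), from the values given above. For the member ranked 48 it was -2.42 (SE 0.14, limma adjusted p = 2.22e-17), with 0.53 to 2.52 TPM in M2 and 4.87 to 14.4 in M1. The balance of the counts turned with the scaling. Median-of-ratios scaling, which moved the median of all genes to -0.18, gave 32 members higher and 10 lower, where 17.7% and 34.3% of all genes were called. Library-median centring, with a median of 0.23, gave 41 and 6, where 39.7% and 13.9% were called. Quantile normalization gave 25 and 9, where 20.2% and 21.3% were called.

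Against MDA-MB-231, 15 members were higher in M2 and 22 lower, where 35.4% and 26.0% of all genes were called, and the median was -0.01 against 0.11. The member ranked 20 had 3.57 to 14.8 TPM in M2 (median 7.86) and 0 to 1.26 in MDA-MB-231 (median 0.17), where it was listed at 0 in 6 of 24 libraries, and it was higher in M2 by 3.54 (SE 0.17, limma adjusted p = 4.99e-21). The member ranked 32 had 2759 to 4905 TPM in M2 and 366 to 621 in MDA-MB-231, a difference of 3.28 (SE 0.08, limma adjusted p = 7.28e-31).

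In the other direction, the member ranked 16 had a median of 0.74 TPM in M2 (0 to 3.31) and 9.86 in MDA-MB-231 (6.0 to 16.0), a difference of -3.18 (SE 0.16, limma adjusted p = 5.11e-20). The member ranked 24 had medians of 408 and 2693 TPM, without overlap between the lines, and a difference of -2.76 (SE 0.07, limma adjusted p = 4.50e-30). Leaving the 10 highest genes out of the scaling total gave 10 members higher and 27 lower, where 25.2% and 34.7% of all genes were called. Quantile normalization gave 11 and 25, where 31.4% and 32.4% were called. The balance of all genes thus turned under both scalings, while more members stayed lower than higher in M2 under each.

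Little else is recorded of the members. In 2 pairs the identifier numbers are 3 apart, the members ranked 3 and 52 and those ranked 19 and 26, and within each pair the levels differed. At 24 h of SB the member ranked 3 had a mean of 55.0 TPM and the member ranked 52 of 0.19. The strand setting of the counting is not given in the sources used here, so reads of overlapping or antisense genes could not be separated. By version number, 37.5% of the members carried version 1, 50.0% version 2 and 12.5% version 3 of their identifier, against 44.4%, 44.5% and 11.0% of the tested genes.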

How the data were processed

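The values are TPM that the authors deposited for 96411 lncRNA genes in 72 columns, each matched to a sample label, and scaled over lncRNA genes alone, so the most abundant genes shift all others. Per the submitters' processing notes, StringTie 1.3.6 and the build GRCh38 were used, as were HISAT2 2.2.0, FastQC and cutadapt 2.10. For the annotation release, the strand and the filters, the setting is "not given in the sources used here". TPM keeps no depth, so no interval or detection limit was possible. Protein-coding markers of the lines were not analysed here. Triplicates are called biological in the design text, which counts 36 samples. If these did not come from separate cultures, the p-values reflect only how much these samples vary. Identical columns numbered 0, and the titles set the time of the earliest SB group.

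Genes reaching 0.5 TPM in 3 or more of the libraries fitted entered limma (version 3.58.1, R 4.3.3, data.table version 1.17.8) as log2(TPM + 0.5), with lmFit, contrasts.fit and a trended eBayes. Fits within a line used 24 libraries and fits between lines 48. The tests were two-sided, adjusted by Benjamini-Hochberg over all genes of the fit, and a gene was called under 0.05; there were 10 comparisons of the 2 h and 8 h groups. On simulated data for the TGF-β step from 2 h to 8 h (16958 genes), the test recovered 84.8% of changes of 2 on the log2 scale, 26.9% of changes of 1 and 0% of changes of 0.5. For the SB step these were 84.8%, 25.4% and 2.99%, and for the arms at 8 h 84.8%, 13.4% and 2.99%. For the step in M2 less that in M1 they were 81.8%, 34.3% and 1.49%. Changes were placed only in genes with a mean of 1 TPM or more, so these rates do not cover lower members.

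The members, comparisons and other settings were chosen with earlier results of these data known. Named members are ranks 1 to 10 and, in each comparison, the 2 called members per direction with the largest change and no overlap of libraries. The full lists of called ranks, and the members ranked 19, 26, 33, 34, 44, 52 and 56, were named after their values were seen. The rule also asked for the members ranked 99 and 100. With 56 members, the last 2 and the 2 genes just outside were given. Of the identifiers, 0 matched the tables used here, only 2 are printed, and no positions or sequences are given. Other settings were pseudocounts of 1 and 0.1, dropping the filter, asking for a mean of 1 TPM or more, 4 other scalings, a replicate block and leaving out each library.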

Additional observations from a re-analysis of the deposited data

Results flagged for a closer look

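The step from 2 h to 8 h differed between lines by the interaction test. It was larger in M2 than in M1 in 5 members and larger than in MDA-MB-231 in 8, by limma with adjusted p under 0.05. Of all genes, 0.764% had a larger and 0.627% a smaller step in M2 than in M1. Against MDA-MB-231 these shares were 0.609% and 0.0643%. Leaving the 10 highest genes out of the scaling total reduced the 8 members to 3, where the shares were 0.287% and 0.0297%. The member ranked 42 differed by 1.29 from M1 and by 1.58 from MDA-MB-231 on the log2(TPM + 0.5) scale. The member ranked 22 differed by 1.26 and 1.27. Both comparisons use the same M2 libraries. No test for a single outlying library was made, since every group holds 3.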

How the results depend on the processing

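Under other settings the members' step from 2 h to 8 h in M2 kept its direction, and its counts moved with the scaling and the filter. Under TGF-β, 1 member was called with no filter, 4 with a mean of at least 1 TPM, 12 with median-of-ratios scaling, 10 with library-median centring, 11 with quantile normalization and 0 with the 10 highest genes left out of the scaling total. Under SB, in the same order from a mean of at least 1 TPM, 5, 9, 9, 8 and 1 were called. In M2 the filter on the mean left only 45 of the 56 members in the test. For the TGF-β step without a filter, 118 of all 35225 genes were higher and 114 lower. Under the filter on the mean, 95 of 9054 were higher and 151 lower in that step. After quantile normalization 375 of 16958 were higher and 417 lower. Over all genes the SB step was higher in 28 of 16958 and lower in 1 in the main setting. A mean of at least 1 TPM gave 41 and 2 of 9054. Quantile normalization gave 147 and 64 of 16958, and leaving out the 10 highest genes 12 and 1. Between the arms at 2 h, median-of-ratios scaling, centring and quantile normalization called 2 and leaving out the 10 highest genes 0. At 8 h they called 6, 17 (with the majority turned to lower), 6 and 1. Of all 16958 genes, quantile normalization called 326 higher and 124 lower at 2 h, and 871 and 823 at 8 h. Leaving out the 10 highest genes called 507 and 77 at 8 h. The larger step in M2 than in M1 was called in 8, 8 and 9 members with the first 3 scalings, and that against MDA-MB-231 in 3 without the 10 highest genes. Against M1, quantile normalization called a larger step in 482 of 21857 genes and a smaller one in 340. For the level against M1, median-of-ratios scaling, centring and quantile normalization called 42, 47 and 34 members with the majority turned to higher. The cause of these shifts was not tested.

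Membership itself was sensitive. Of the 56 members, the rule kept 23 with a pseudocount of 1, 30 with 0.1, 36 with median-of-ratios scaling, 27 with quantile normalization and 31 without the 10 highest genes. Library-median centring and no filter give no separate value for this count. Leaving out each of 36 libraries in turn kept 45 to 55, and 9 members in all repeats. With quantile normalization 41 and 45 of the 56 still reached 0.8 under TGF-β and SB.

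Leaving out 1 library at a time called 1 to 2 members for the TGF-β step, 2 to 8 for the SB step, 1 to 9 and 1 to 4 between the arms at 2 h and 8 h, 3 to 7 in M1, 0 in MDA-MB-231, 4 to 7 and 6 to 9 for the larger steps in M2 against M1 and MDA-MB-231, and 39 to 42 and 36 to 38 for the levels. For none of the repeats without a library are the shares of all genes called given here, so these counts have no background. With the replicate number as a block, 2 and 3 members were called for the TGF-β and SB steps, 7 in M1 and as many as without it in the other comparisons. Over all genes, the block gave 85 higher and 87 lower for the TGF-β step, 25 and 1 for the SB step, and 756 and 484 in M1. It moved the lower calls in MDA-MB-231 from 31 to 94. Correlations between the deviations of same-numbered libraries ran from -0.19 to 0.15 over the 10 comparisons and were over 0.1 in 5 of 18 pairs in MDA-MB-231. In no comparison were all pairs over 0.1, so the numbers were not taken to pair the libraries. A pairing of only some libraries would not meet this criterion, so it is not excluded. Of the values of single named members, 488 kept their side of the threshold, 13 lost it and none reversed. Depth is unknown, so how far low members are limited by counting could not be given.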
